A study of Drosophila melanogaster with 14 samples.

Results

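The RR and larval cuticle protein genes of Drosophila melanogaster were described in RNA from nuclei of embryonic mesoderm and neurons. The members were the genes whose FlyBase symbol begins with Cpr and a digit, Lcp and a digit, Ccp84, Acp65 or Edg. The rule used names only and no measured value. It found 98 genes among the 16073 genes listed in the tables, and 2 of the 98 are annotated as pseudogenes. By symbol they were 70 Cpr genes, 11 Lcp65A genes, 7 Ccp84A genes, the 4 larval genes Lcp1 to Lcp4, 3 Edg genes, Acp65Aa and 2 remaining Lcp symbols.

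The insect cuticle is an extracellular layer of chitin fibres and proteins that epidermal and tracheal cells secrete at their apical surface. Many of its proteins share the Rebers and Riddiford (RR) consensus, a chitin-binding domain, and the Cpr, Lcp, Ccp84A and Acp65Aa genes belong largely to that family. The larval cuticle is laid down late in embryogenesis, and different members are used in larval, pupal and adult cuticle. Muscle and neurons do not secrete cuticle.

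The nuclei were obtained with INTACT, in which a tag on the nuclear surface of chosen cells allows their purification. In all, 14 libraries fell into 6 groups. Ubx-degraded mesoderm (twi-INTACT, Mef2>Nslmb,GFP-Ubx, stages 14-17, 3 libraries) was set against its control (twi-INTACT; UAS-Nslmb,GFP-Ubx, stages 14-17, 3 libraries). Nslmb is a fusion that sends GFP-tagged proteins to degradation. Both groups carried GFP-Ubx, the twi-driven tag and the Nslmb transgene, and the control genotype names no driver for it. The wild-type groups were mesoderm (twi-INTACT) at stages 14-17 and 10-13 and neuronal nuclei (elav>INTACT) at stages 14-17 and 10-13, with 2 libraries each. Which nuclei were tagged therefore depends on the twi and elav promoters, and where Ubx was degraded depends on the Mef2 driver. Nothing in the labels ties replicates to separate collections of embryos, so each p-value here covers the spread among these libraries alone, which may be technical.

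The wild-type libraries held 12970816 to 36150646 counts assigned to genes, and the degradation libraries 24314883 to 31033963. Before the members are described, 3 features of the libraries bear on them. First, the neuronal libraries of stages 10-13 stood apart, with 1.05% and 1.24% of their counts on members, against 0.0112% to 0.326% in the 12 other libraries. Nothing in the files beyond marker genes checks the labels or the purity of these libraries, so each neuronal value of stages 10-13 below is that of the libraries so labelled. Their summed neuronal markers were at 980 and 633 CPM, and their summed mesoderm and muscle markers at 8096 and 9003 CPM. Second, the marker lists parted the tissues only in part. Of 8 mesoderm and muscle markers, 5 were higher and 0 lower in mesoderm than in neuronal nuclei at stages 14-17 (6 and 0 at an unadjusted p under 0.05, and by DESeq2). At stages 10-13, 2 were higher, twi and Mef2, and 4 were lower, with sums of 6170 and 5714 CPM in mesoderm, against 8096 and 9003 CPM in neuronal nuclei. Of 8 tested neuronal markers 0 were higher and 0 lower at stages 14-17 by edgeR (1 higher and 0 lower at an unadjusted p under 0.05, and by DESeq2), when their summed level was 718 to 1123 CPM (counts scaled to library size) in mesoderm and 520.1 to 816 CPM in neuronal nuclei. In addition, Ubx mRNA averaged 77.2 ± 13.7 CPM in degraded and 66.7 ± 5.70 CPM in control libraries (SD, n = 3 each; log2 difference 0.21, adjusted p = 0.448); the degradation acts on the protein, so this mRNA does not check the labels.

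Not every member could be measured. The wild-type tables listed 96 of the 98, of which 86 had a count and 76 passed the filter on low counts; the degradation tables listed all 98, of which 94 had a count and 77 passed. Lcp65Ab1, Lcp65Ab2, Cpr57A and Cpr65Ax1 were at 0 in all 14 libraries. In the annotation 8 members lie inside another gene, and 6 of these were at 0 in every wild-type library. Among them were Cpr64Aa, Cpr64Ab, Cpr64Ac and Cpr64Ad (chromosome 3L, 4207838 to 4216414, build BDGP6), all inside CG43367 (4193993 to 4224003), so a 0 there is not a measurement of absence. Lcp65Ag1, Lcp65Ag2 and Lcp65Ag3, Cpr67Fa1 and Cpr67Fa2, and Lcp1 and Lcp2 are taken as near-identical copies, though no sequences were compared. Reads that align to more than 1 copy may have been set aside, which would lower the counts of the copies. By name the same may hold for Lcp65Ab1 and Lcp65Ab2, and for Cpr65Ax1 and Cpr65Ax2. A 0 in these genes is therefore not taken as absence. Cpr65Ax2, inside no other gene, was at 0 in every wild-type library but had 96 to 181 counts in the degradation libraries. Lcp65Ag3 and Cpr67Fb also lie inside antisense RNA genes, and since the strand setting is not given, reads of the partners cannot be told apart.

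Cuticle protein genes were measured in every group, at very unequal levels. Their summed level was 1150 and 900.2 CPM in the mesoderm libraries of stages 14-17 and 253 and 117 CPM in those of stages 10-13. In neuronal nuclei the sums were 755 and 884 CPM at stages 14-17 and 9193 and 10820 CPM at stages 10-13. Neuronal nuclei of stages 10-13 thus held the highest sums of the wild-type set and mesoderm of the same stages the lowest, with no overlap between any of these 2 groups and the others. In the degradation set the sums were 3211, 3133 and 2349 CPM in Ubx-degraded libraries and 2307, 2076 and 2278 CPM in control libraries. The lowest degraded value thus lay close above the highest control value. With RLE factors as scaling the groups overlapped, with 2333 CPM in degraded replicate 3 and 2354 CPM in control replicate 3. The wild-type and degradation tables were counted and normalised separately, so levels are not set against each other across them. In bulk RNA of this kind, fewer cells of a type and less RNA per cell cannot be told apart.

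**Figure D1:**
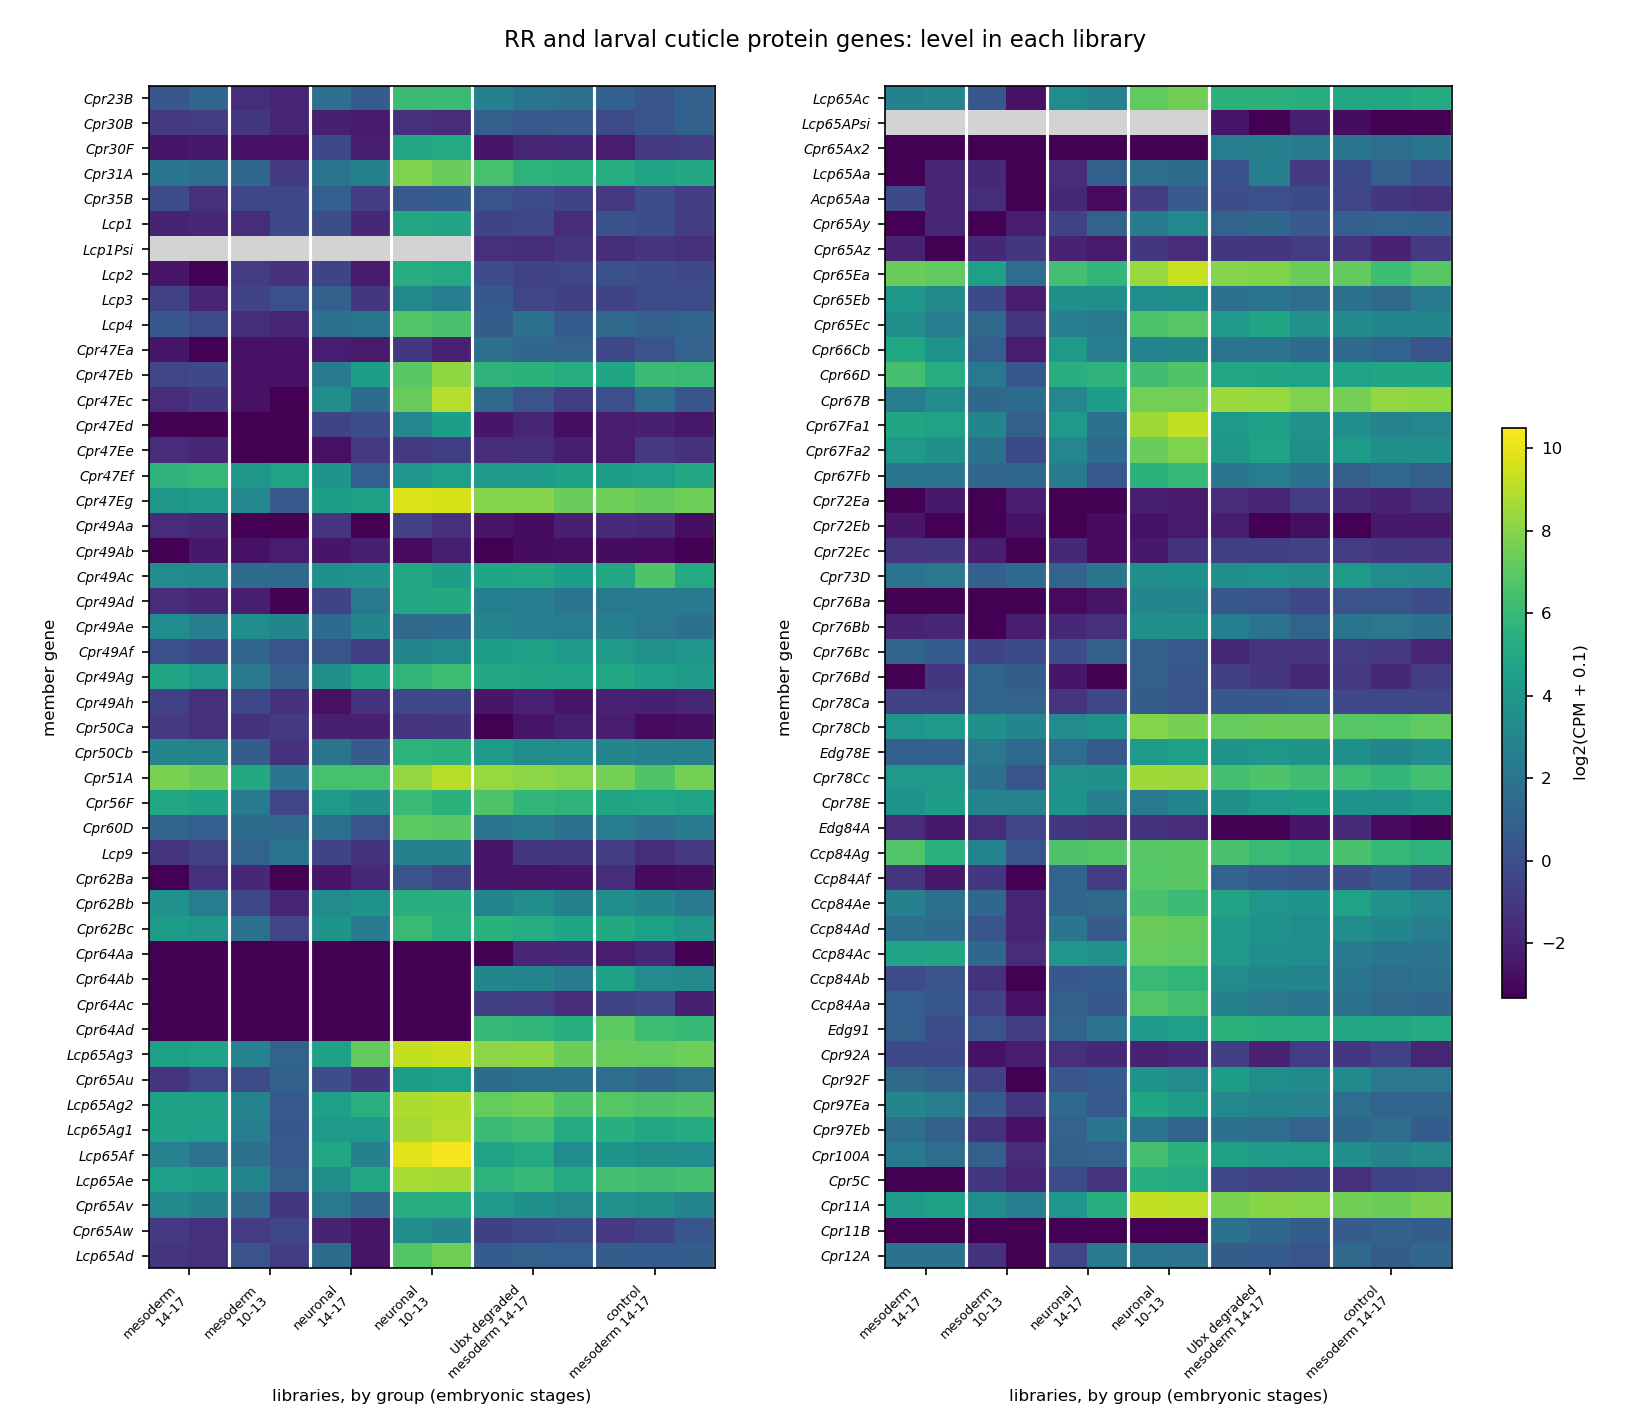
Level of the 94 members with a count in at least 1 library, as log2(CPM + 0.1), with 1 row per gene in genome order and 1 column per library; white lines part the 6 groups and grey marks genes that the wild-type tables do not list. The 2 neuronal libraries of stages 10-13 are bright over most rows, and the Cpr64A rows hold values only in the degradation libraries.

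Per kilobase of exon, a scale that allows genes to be compared, the leading members differed between groups. Cpr51A (294 CPM per kb) and Cpr65Ea (285 CPM per kb), both genes of the RR family, led in mesoderm of stages 14-17. The replicates of mesoderm at stages 10-13 differed: Cpr51A led replicate 1 with 52.5 CPM per kb, and Cpr78E led replicate 2 with 14.8 CPM per kb. In neuronal nuclei of stages 14-17 Cpr65Ea led replicate 1 (153 CPM per kb) and Lcp65Ag3 led replicate 2 (265 CPM per kb), while Cpr51A was next in both (136 and 138 CPM per kb). In both neuronal libraries of stages 10-13 Lcp65Af (mean 2134 CPM per kb), Cpr47Eg (2019 CPM per kb) and Lcp65Ag3 (1183 CPM per kb) held the top places. Cpr47Eg led in the degradation set, with 524 CPM per kb in degraded and 389 CPM per kb in control libraries.

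The members lie in clusters, and 11 cytological positions hold 3 or more of them. The largest, at 65A (chromosome 3L, 6130386 to 6161589), holds 19 members in 31.2 kb and includes the Lcp65A larval genes and the adult cuticle gene Acp65Aa. Its summed level was 117 and 110.2 CPM in mesoderm of stages 14-17 and 37.8 and 11.5 CPM at stages 10-13. In neuronal nuclei it was 126 and 256 CPM at stages 14-17 and 3135 and 3776 CPM at stages 10-13. The neuronal values lay above the mesoderm values of the same stages at both times, and those of stages 10-13 were the highest of any cluster in the wild-type libraries.

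The 84A cluster (chromosome 3R, 6684445 to 6704903) holds 7 Ccp84A genes, the cuticle cluster inside the Antennapedia Hox complex, and Edg84A in 20.5 kb. Its summed level was 149 and 80.4 CPM in mesoderm of stages 14-17 and 15.02 and 2.39 CPM at stages 10-13, and these groups did not overlap. In neuronal nuclei it was 128 and 131 CPM at stages 14-17 and 819 and 741 CPM at stages 10-13. The 47E cluster of 7 Cpr genes had 68.6 and 80.0 CPM in mesoderm of stages 14-17 and 24.6 and 26.0 CPM at stages 10-13. Its neuronal values were 51.8 and 49.8 CPM at stages 14-17 and 1194 and 1642 CPM at stages 10-13. At 62B Cpr62Bc had the highest mean level over the wild-type libraries, 20.9 CPM. At 78C that gene was Cpr78Cc, with a mean of 100 CPM, against 65.5 CPM for Cpr78Cb, which led in the degradation set. Cpr78Cb had 15.2 and 19.5 CPM in mesoderm of stages 14-17 and 12.3 and 7.74 CPM at stages 10-13. Cpr11A, outside any cluster, had 19.9 and 23.8 CPM in mesoderm of stages 14-17 and 10.7 and 5.88 CPM at stages 10-13. It had 15.4 and 41.5 CPM in neuronal nuclei of stages 14-17 and 597 and 559 CPM at stages 10-13. Cpr76Bb, the most abundant gene at 76B, was at or under 0.268 CPM in every wild-type library except the neuronal ones of stages 10-13, where it had 11.8 and 12.3 CPM. At the other end, the 3 genes at 72E, among them Cpr72Ec, stayed at or under 1.05 CPM in sum in all 14 libraries.

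**Figure D2:**
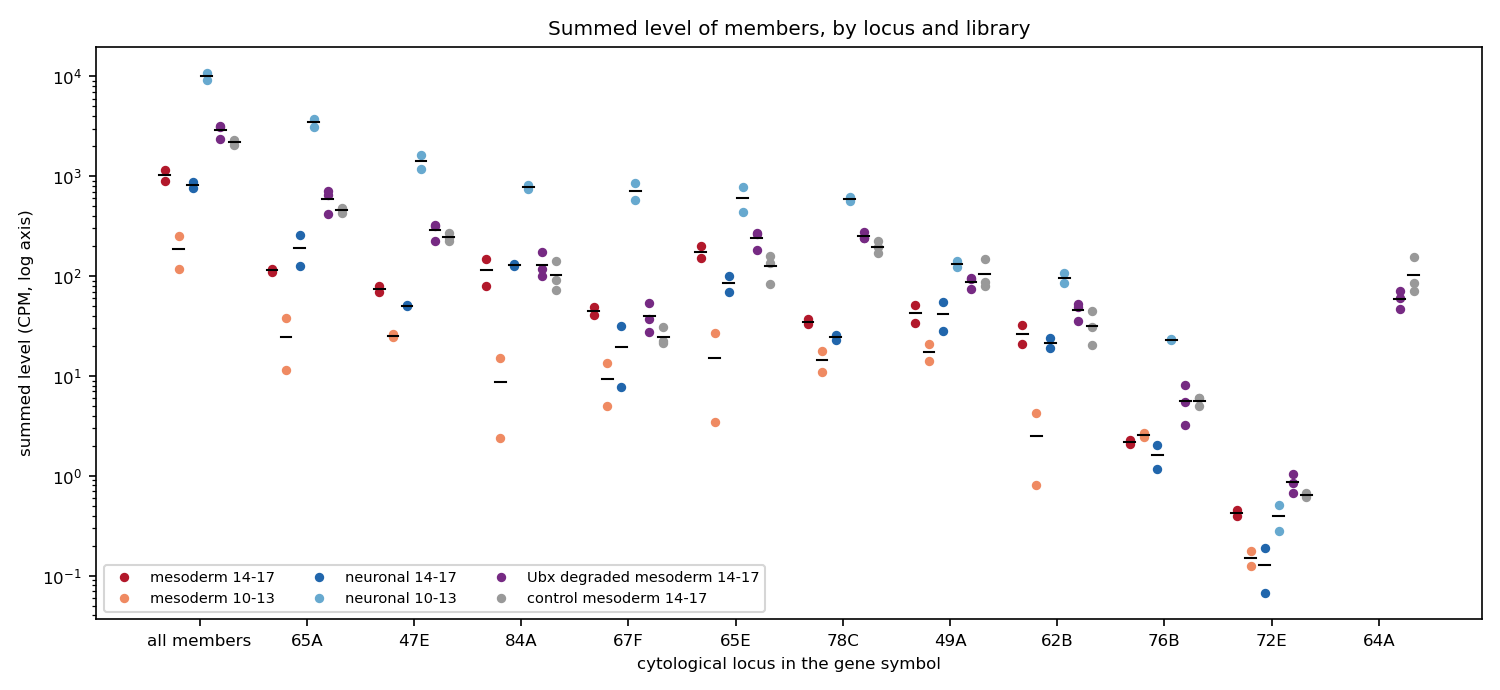
Summed level of the members (CPM, log axis) for all members and for each cytological position with 3 or more of them; each point is 1 library and each dash the group mean, with wild-type and degradation libraries normalised separately. Neuronal libraries of stages 10-13 lie above the other wild-type groups at every position except 64A and 72E, and sums of 0 at 64A in the wild-type libraries cannot be drawn on the log axis.

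In mesoderm the cuticle genes were mostly higher at stages 14-17 than at stages 10-13. Of 76 members tested, 38 rose and 4 fell (edgeR's quasi-likelihood test, Benjamini-Hochberg adjusted p under 0.05), beside 24.9% of all tested genes that rose and 22.7% that fell. The median log2 change of the tested members was 1.87, or 1.85 with genes at 0 in a group set at their bound, against 0.00 over all tested genes. Among the members with the largest changes, Cpr65Eb had 16.2 and 9.17 CPM at stages 14-17, against 0.748 and 0.116 CPM at stages 10-13. Its log2 change was 4.88 ± 0.65 (SE, n = 2 each, adjusted p = 0.00108), and the groups did not overlap. Cpr66Cb had 30.8 and 13.9 CPM at stages 14-17, against 1.75 and 0.116 CPM at stages 10-13, a log2 change of 4.596 ± 1.01 (adjusted p = 0.00804). Cpr62Bb (4.41 ± 0.62, adjusted p = 0.0014) and Cpr66D (4.37 ± 0.63, adjusted p = 0.00154) rose by like amounts.

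The Antennapedia complex genes followed this direction in mesoderm, with 5 of 7 tested Ccp84A genes rising and none falling. Ccp84Ac had 26.8 and 27.4 CPM at stages 14-17, against 2.49 and 0.233 CPM at stages 10-13, a log2 change of 4.33 ± 0.71 (adjusted p = 0.00246). Ccp84Ag had 109 and 44.3 CPM at stages 14-17, against 7.48 and 1.11 CPM at stages 10-13 (4.16 ± 0.79, adjusted p = 0.00458). In both genes the later libraries lay above the earlier ones. In the Lcp65A family 5 of 8 tested genes rose, among them Lcp65Ag1 with 23.8 and 22.0 CPM at stages 14-17, against 5.92 and 1.28 CPM at stages 10-13 (2.68 ± 0.56, adjusted p = 0.00654). The abundant members Cpr51A (3.32 ± 0.81, adjusted p = 0.0125) and Cpr65Ea (3.55 ± 0.83, adjusted p = 0.0106) rose as well.

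The 4 members that fell in mesoderm were all at low levels, and they were named because they were few. Lcp9 had 0.318 and 0.540 CPM at stages 14-17, against 1.99 and 3.96 CPM at stages 10-13 (log2 change -2.80, adjusted p = 0.00624). Cpr78Ca (adjusted p = 0.022) and Cpr76Bd (adjusted p = 0.0331) were between 0 and 2.06 CPM in every mesoderm library. Cpr5C had no count at stages 14-17 and 9 counts at stages 10-13, which makes it at least 2.14-fold lower with a floor of 3 counts over the group. Edg78E, an ecdysone-dependent gene of imaginal discs, did not pass the test, with 1.83 and 1.80 CPM at stages 14-17, against 4.55 and 2.56 CPM at stages 10-13 (log2 difference -0.97, adjusted p = 0.133).

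Other cuticle genes moved with the members in mesoderm. In the list of Tweedle and other cuticle protein families, here called the Tweedle list, 14 of 21 tested genes rose and none fell. TwdlV was at 13.2 ± 3.2 CPM against 0.494 ± 0.53 CPM (log2 change 4.75, adjusted p = 0.00100). In the chitin synthesis and assembly list 22 of 30 rose and 1 fell; knickkopf (knk), which organises chitin, rose by 2.41 ± 0.20 (adjusted p = 0.000293). In the tanning list 12 of 14 rose, including Pu, the GTP cyclohydrolase of pteridine synthesis (1.94 ± 0.24, adjusted p = 0.000824). Markers of other tissues rose too. Of 11 epidermal markers 6 rose and 1 fell, and of 4 tracheal markers 1 rose and 0 fell. All 8 neuronal markers rose, and 7 of 8 muscle markers rose and 1 fell. The summed epidermal markers, of which 1 of 12 was at 0 in all wild-type libraries, were at 3810 and 3807 CPM at stages 14-17, against 2659 and 3191 CPM at stages 10-13, and the summed neuronal markers at 1123 and 718 CPM, against 133 and 131 CPM. The part of these markers in the members' change was not tested. The number of members that rose depended on single libraries: it was 17 without replicate 1 of stages 14-17, 23 without replicate 2 of those stages, and 24 without replicate 2 of stages 10-13. With the 4 mesoderm libraries alone in the fit, 39 members rose and 3 fell.

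Neuronal nuclei showed the opposite direction over the same stages. Of 76 members tested, 54 fell and 0 rose at stages 14-17 relative to stages 10-13, beside 12% of all tested genes that fell and 8.47% that rose. At an unadjusted p under 0.05, 62 fell and 0 rose by edgeR, and DESeq2 called 57 lower and 0 higher. The median log2 change of the tested members was -3.75, against -0.03 over all tested genes. The filter on low counts was applied to all wild-type libraries together. A member with counts almost only in the neuronal libraries of stages 10-13 thus entered the test, and its fall was largely fixed. Cpr76Ba had 258 and 324 counts there and 0 to 2 elsewhere in the wild-type set. Cpr30F had 966 and 1429 counts there and 1 to 27 elsewhere. The number of such members was not determined. All 4 of Lcp1 to Lcp4, larval cuticle genes best known from late larvae, fell. Lcp2 had 0.592 and 0.1003 CPM at stages 14-17, against 39.7 and 35.4 CPM at stages 10-13, a log2 change of -6.69 ± 0.68 (SE, n = 2 each, adjusted p = 0.0017). The 2 groups lay far apart, and the later values were near the detection limit.

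Larval genes of the 65A cluster fell by wide margins. Lcp65Af had 30.6 and 6.32 CPM at stages 14-17, against 948 and 1268 CPM at stages 10-13 (log2 change -5.90 ± 0.83, adjusted p = 0.00463). Lcp65Ad had 2.85 and 0.0669 CPM at stages 14-17, against 110.0 and 182 CPM at stages 10-13 (-6.60 ± 1.13, adjusted p = 0.00935). Lcp65Ad varied widely between the later replicates, but both lay below the earlier libraries. In all 7 of 8 tested Lcp65A genes fell, and Lcp65Aa, with -1.49 ± 0.97 (adjusted p = 0.305), did not pass. Cpr65Aw, also at 65A, had 0.161 and 0.0669 CPM at stages 14-17, against 11.01 and 7.75 CPM at stages 10-13 (-6.26 ± 0.55, adjusted p = 0.00114).

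In the 84A cluster 6 of 7 Ccp84A genes fell. Ccp84Af had 2.04 and 0.435 CPM at stages 14-17, against 115.1 and 125 CPM at stages 10-13 (log2 change -6.57 ± 0.82, adjusted p = 0.00317). Ccp84Ag, next to it, had 101 and 111 CPM at stages 14-17, against 122 and 126 CPM at stages 10-13. Its log2 difference was -0.23 ± 0.68 (adjusted p = 0.833), so neighbours in 1 cluster differed widely in the size of the difference, and a test between them was not run. Cpr76Ba had 3 counts at stages 14-17 and 582 at stages 10-13, a 177-fold lower level with a 95% counting interval of 60.3 to 861. Cpr30F was at 0.726 and 0.134 CPM, against 30.2 and 34.4 CPM (-6.17 ± 0.63, adjusted p = 0.0017). Both Cpr76Ba and Cpr30F entered the test through the libraries of stages 10-13, so their fall was largely fixed. Counting intervals cover counting error only.

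Both Edg genes that could be tested fell in neuronal nuclei. Edg78E had 3.12 and 1.40 CPM at stages 14-17, against 17.4 and 23.7 CPM at stages 10-13 (log2 change -3.17 ± 0.47, adjusted p = 0.00545). Edg91, which encodes a glycine-rich cuticle protein, had 1.99 and 3.75 CPM at stages 14-17, against 17.4 and 22.2 CPM at stages 10-13 (-2.79 ± 0.49, adjusted p = 0.0104). Edg84A, a gene of the prepupal cuticle, did not pass the filter on low counts and stayed between 0 and 0.640 CPM in all 14 libraries. The adult gene Acp65Aa was at 0.188 and 0.0334 CPM at stages 14-17, against 0.469 and 1.44 CPM at stages 10-13, and did not pass the test (adjusted p = 0.096).

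The neuronal decline was shared by other cuticle genes and by epidermal markers, while no tracheal marker passed the test. In the Tweedle list 16 of 21 tested genes fell and none rose, with TwdlQ at 3.15 ± 1.7 CPM against 154 ± 20 CPM (log2 change -5.61, adjusted p = 0.00143). In the chitin list 10 of 30 fell and 2 rose, and rebuff (reb), needed for chitin deposition in the trachea, fell by 3.15 on the log2 scale (adjusted p = 0.00154). In the tanning list 5 of 14 fell, including dopa decarboxylase (Ddc, -4.38, adjusted p = 0.00254). Of the epidermal markers 7 of 11 fell and none rose, with sums of 1917 and 2831 CPM at stages 14-17, against 5489 and 4448 CPM at stages 10-13. Of 4 tracheal markers 0 fell and 0 rose. Their sums were 1101 and 2179 CPM at stages 14-17, against 1593 and 1378 CPM at stages 10-13. Of the 8 neuronal markers tested, 0 fell and 0 rose by edgeR (1 and 0 at an unadjusted p under 0.05, and 0 and 0 by DESeq2). The part of the epidermal markers in the members' change was not tested. Leaving out replicate 1 of the neuronal stage 10-13 libraries lowered the number of members that fell to 33, and leaving out replicate 2 lowered it to 42. Without that first library Lcp65Ad (adjusted p = 0.0599) no longer passed.

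**Figure D3:**
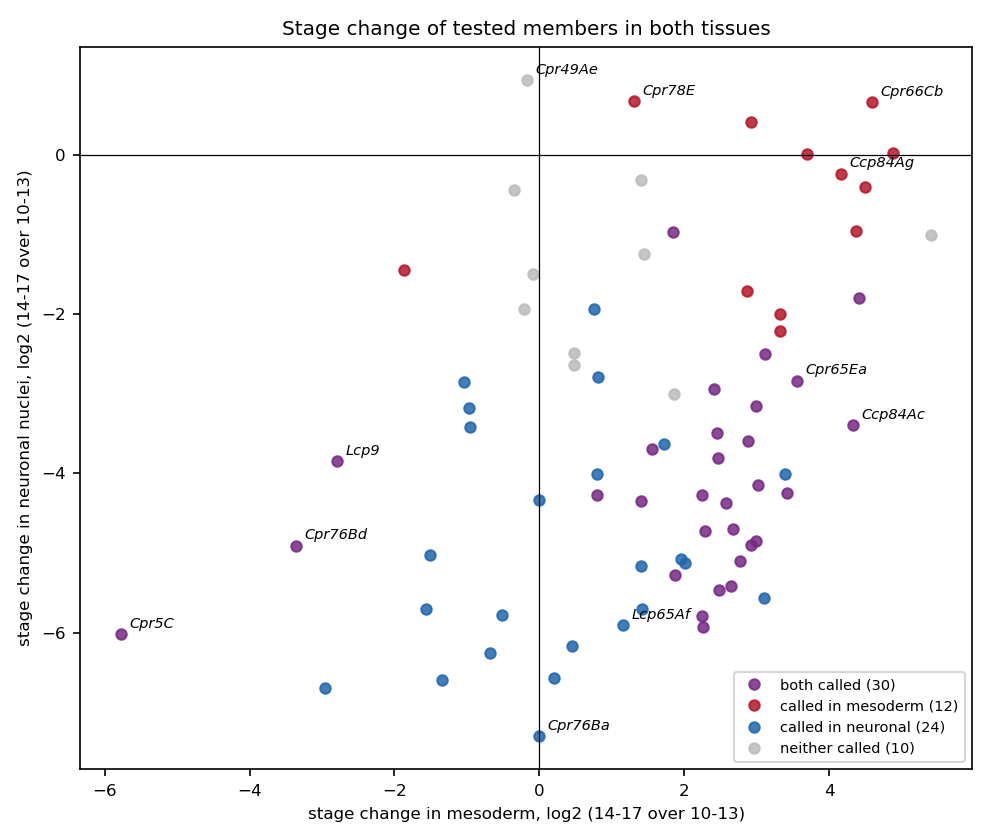
Log2 change from stages 10-13 to stages 14-17 of the 76 tested members, in mesoderm (x axis) and in neuronal nuclei (y axis), 1 point per gene, coloured by which test passed at adjusted p under 0.05. Most points lie right of 0 and below 0, and Ccp84Ag and Cpr66Cb lie near 0 on the neuronal axis, at -0.23 and 0.66; fitted values of genes with no count in 1 group, such as Cpr5C and Cpr76Ba, depend on the fit's prior count.

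The difference between the tissues was tested directly as the stage change in mesoderm minus the stage change in neuronal nuclei. It was above 0 in 53 of 76 tested members and below 0 in 0 of them, beside 20.6% and 14.7% of all tested genes. At an unadjusted p under 0.05 there were 60 above and 0 below by edgeR, and DESeq2 called 58 and 0. In the 84A cluster all 7 tested genes differed, as did all 3 at 65E and all 3 at 67F. Set side by side, 27 members rose in mesoderm and fell in neuronal nuclei, 11 rose in mesoderm only by the test, 24 fell in neuronal nuclei only by the test, and 10 passed in neither. The same split was not made over all tested genes. Cpr47Ed and Cpr76Ba had no count in any wild-type mesoderm library, so no stage change in mesoderm could be called for them. In the mesoderm libraries of the degradation set Cpr47Ed had 1 to 5 counts and Cpr76Ba 17 to 34. Cpr5C, Cpr76Bd and Lcp9 fell in both tissues, and Cpr78Ca fell in mesoderm only by the test. Cpr78Cc, one of the clearest, had 17.2 and 17.1 CPM in mesoderm of stages 14-17 against 3.37 and 1.16 CPM at stages 10-13. In neuronal nuclei it had 12.5 and 12.2 CPM at stages 14-17 against 375 and 362 CPM at stages 10-13. Its changes differed by 7.83 ± 0.57 on the log2 scale (adjusted p = 0.000512), and the 2 tissues reached like levels at stages 14-17. This test shares its stage 10-13 neuronal libraries with the neuronal comparison and is not independent of it. The limit of the filter named for that comparison applies here as well.

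At stages 10-13 mesoderm held far less cuticle gene RNA than neuronal nuclei. Of 76 members tested, 64 were lower and 1 was higher in mesoderm, beside 29.5% and 23.2% of all tested genes. The median log2 difference was -5.61, or -5.47 with genes at 0 in mesoderm set at their bound, against -0.08 over all tested genes. Members that entered the test only through these neuronal libraries, such as Cpr76Ba and Cpr30F, were largely bound to be lower in mesoderm. The 47E cluster gave the widest gaps. Cpr47Ec had 1 count in the 2 mesoderm libraries and 25448 in the 2 neuronal libraries, an 11500-fold lower level in mesoderm with a 95% counting interval of 2064 to 454300. Cpr47Eb had 2 counts in mesoderm and 16235 in neuronal nuclei, 3669-fold lower with an interval of 1015 to 30300. Cpr47Ed had no count in mesoderm and 1142 in neuronal nuclei and was at least 172-fold lower. In the same cluster Cpr47Ef did not differ by the test, with 16.1 and 24.6 CPM in mesoderm and 15.4 and 21.9 CPM in neuronal nuclei (log2 difference 0.12 ± 0.77, adjusted p = 0.902).

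Cpr76Ba (0 counts in mesoderm and 582 in neuronal nuclei, at least 87.7-fold lower) and Cpr30F (2 and 2395 counts, 541-fold lower, interval 149.7 to 4472) were also among the widest gaps. All 7 Ccp84A genes, all 8 tested Lcp65A genes and all 4 of Lcp1 to Lcp4 were lower in mesoderm. Ccp84Af had 0.374 and 0 CPM in mesoderm, against 115.1 and 125 CPM in neuronal nuclei (log2 difference -9.33 ± 1.02, adjusted p = 0.000414). The 1 member that was higher was Cpr49Ae, with 10.3 and 8.15 CPM in mesoderm, against 2.63 and 2.77 CPM in neuronal nuclei (1.77 ± 0.51, adjusted p = 0.0214). Its groups did not overlap, but the call was lost without replicate 1 of the mesoderm or without either neuronal library of these stages, with adjusted p from 0.0735 to 0.1. Cuticle genes outside the members showed the same side: 20 of 21 tested Tweedle list genes, 24 of 30 chitin genes and 11 of 14 tanning genes were lower in mesoderm, as were 8 of 8 neuronal markers, 5 of 11 epidermal markers and 4 of 8 mesoderm and muscle markers, while 4 epidermal markers and 2 mesoderm and muscle markers were higher. The epidermal sums were 2659 and 3191 CPM in mesoderm and 5489 and 4448 CPM in neuronal nuclei. Of 4 tracheal markers 0 were higher and 1 was lower in mesoderm by edgeR (2 and 1 by DESeq2). The part of these markers in the members' difference was not tested.

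At stages 14-17 few members separated mesoderm from neuronal nuclei. Of 76 members tested, 2 were higher and 7 lower in mesoderm, beside 19.0% and 22.1% of all tested genes, and the median log2 difference was -0.06, or -0.03 with genes at 0 in a group set at their bound, against -0.12 over all tested genes. With library totals alone as scaling the split was 0 higher and 9 lower. Cpr47Ef, the highest, had 51.5 and 59.5 CPM in mesoderm, against 14.0 and 1.64 CPM in neuronal nuclei (log2 difference 2.81 ± 0.82, adjusted p = 0.0289). Cpr97Ea had 7.62 and 5.49 CPM in mesoderm, against 2.501 and 1.40 CPM in neuronal nuclei (1.74 ± 0.55, adjusted p = 0.0394). On the other side, Cpr47Eb had 0.635 and 0.720 CPM in mesoderm, against 5.27 and 21.0 CPM in neuronal nuclei (-4.27 ± 0.82, adjusted p = 0.00724). Cpr47Ec had 0.238 and 0.360 CPM in mesoderm, against 10.8 and 2.81 CPM in neuronal nuclei (-4.51 ± 1.05, adjusted p = 0.0137).

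The 47E genes thus lay on both sides of 0 at stages 14-17. Cpr47Eb, Cpr47Ec and Cpr47Ed were lower in mesoderm, and Cpr47Ef, in the same 7-gene cluster, was higher. Cpr49Ad, Cpr5C, Cpr65Ay and Lcp4 were the other lower members. Leaving out either mesoderm library of these stages left 0 members higher and 1 lower. Leaving out replicate 1 of the neuronal libraries gave 11 higher and 12 lower, and leaving out replicate 2 gave 3 and 14. Replicate 2 of the neuronal libraries also carried 1637 CPM of midgut markers, against 152 CPM in replicate 1 and 241 to 272 CPM in mesoderm. Of 11 epidermal markers 5 were higher and 0 lower in mesoderm, with sums of 3810 and 3807 CPM in mesoderm and 1917 and 2831 CPM in neuronal nuclei. Of 4 tracheal markers 1 was higher and 0 were lower. The part of these markers was not tested.

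Ubx-degraded mesoderm had higher levels of a small set of cuticle genes than control mesoderm. Of 77 members tested, 8 rose and 0 fell in Ubx-degraded relative to control mesoderm, beside 3.57% of all tested genes that rose and 1.21% that fell. At an unadjusted p under 0.05, 32 were higher and 4 lower by edgeR, and DESeq2 called 14 higher and 3 lower. The median log2 difference of the tested members was 0.35, against -0.01 over all tested genes, with a range of -1.06 to 1.67. The 3 degraded libraries lay above all 3 control libraries in 26 members and below them in 3, beside 15.9% and 11.9% of all tested genes.

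**Figure D4:**
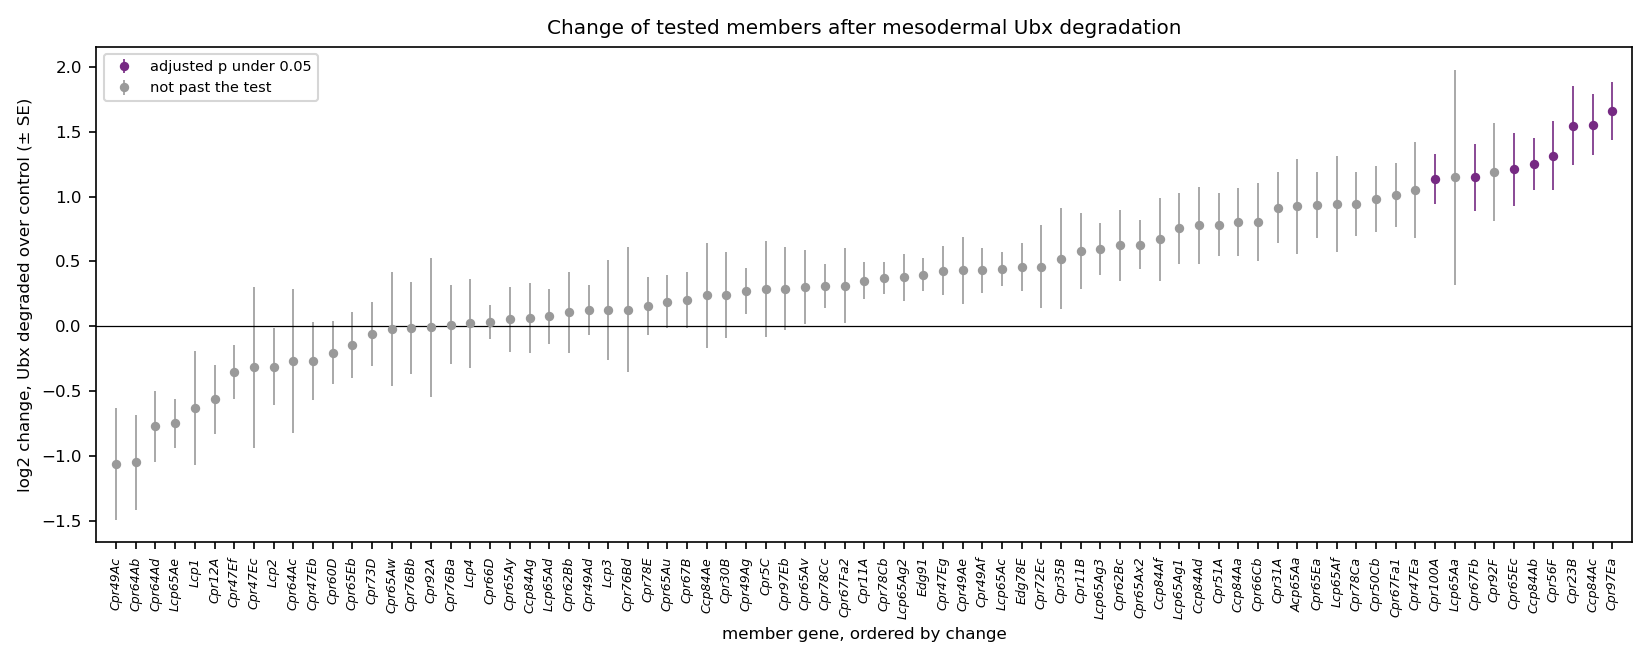
Log2 difference between Ubx-degraded and control mesoderm (± SE) for the 77 tested members, in order of size. The 8 members past adjusted p under 0.05 lie between 1.14 and 1.67, and the 4 lowest values belong to Cpr49Ac, Cpr64Ab, Cpr64Ad and Lcp65Ae, which did not pass.

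The members that rose were Cpr97Ea, Ccp84Ac, Cpr23B, Cpr56F, Ccp84Ab, Cpr65Ec, Cpr67Fb and Cpr100A, all RR proteins. Cpr97Ea had 8.90, 7.38 and 6.91 CPM in degraded libraries, against 3.13, 2.05 and 2.13 CPM in control libraries. Its log2 change was 1.67 ± 0.22 (SE, n = 3 each, adjusted p = 0.0100), and every degraded library exceeded every control library. Cpr23B had 6.59, 4.08 and 3.52 CPM in degraded and 1.85, 1.18 and 1.83 CPM in control libraries (1.55 ± 0.30, adjusted p = 0.0308). Cpr56F was the most abundant of the 8, with 105, 57.2 and 50.4 CPM in degraded and 28.4, 31.3 and 25.6 CPM in control libraries (1.32 ± 0.27, adjusted p = 0.0335). Its first degraded library was far above the other degraded ones, and the groups did not overlap.

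The Antennapedia complex cluster contributed 2 of the 8. Ccp84Ac had 17.2, 10.8 and 10.7 CPM in degraded and 5.08, 4.25 and 3.78 CPM in control libraries (log2 change 1.56 ± 0.23, adjusted p = 0.0158). Ccp84Ab had 10.1, 8.16 and 7.36 CPM in degraded and 4.19, 3.13 and 3.40 CPM in control libraries (1.25 ± 0.20, adjusted p = 0.0186). In both, all degraded libraries lay above all control libraries. The other 5 tested genes of the family did not pass, and the most abundant of them, Ccp84Ag, had 91.5, 65.5 and 52.6 CPM in degraded and 92.7, 59.0 and 48.8 CPM in control libraries (0.06 ± 0.27, adjusted p = 0.917). Its groups overlapped throughout.

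The remaining members that rose came from other clusters. Cpr65Ec had 17.95, 29.0 and 12.8 CPM in degraded and 9.67, 7.99 and 8.12 CPM in control libraries (log2 change 1.21 ± 0.28, adjusted p = 0.0484). Cpr100A had 22.7, 19.9 and 17.1 CPM in degraded and 10.98, 7.16 and 9.01 CPM in control libraries (1.14 ± 0.20, adjusted p = 0.0213). Neither gene's groups overlapped. Cpr67Fb had 4.21, 5.64 and 3.48 CPM in degraded and 1.71, 2.53 and 1.74 CPM in control libraries (1.15 ± 0.26, adjusted p = 0.0452), with the limit of the antisense gene named above. Its neighbour Cpr67Fa1 narrowly missed the threshold, with 17.7, 22.8 and 12.5 CPM in degraded and 10.8, 7.23 and 8.20 CPM in control libraries (1.01 ± 0.25, adjusted p = 0.0563).

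**Figure D5:**
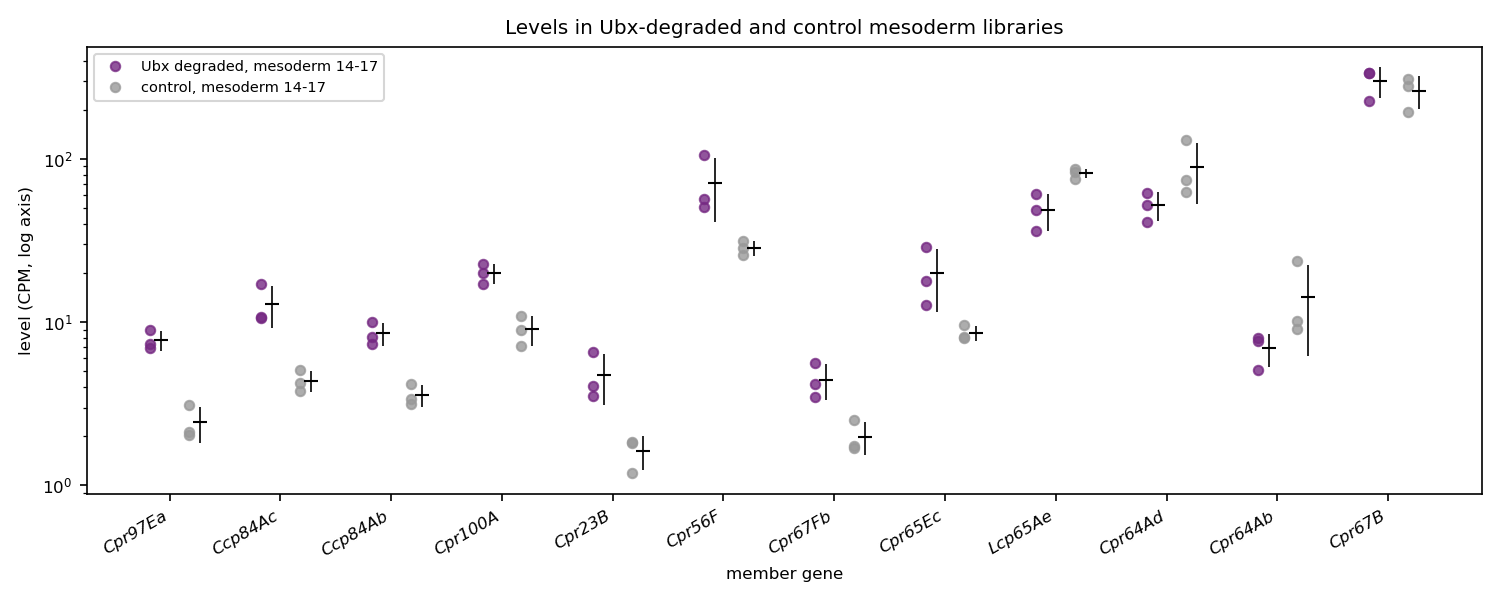
Level (CPM, log axis) of the 8 members that rose after Ubx degradation and of 4 that did not pass the test, with 1 point per library and the mean ± SD beside it, degraded left of control. The 3 degraded points lie above the 3 control points in the first 8 genes, below them in Lcp65Ae, Cpr64Ad and Cpr64Ab, and overlap them in Cpr67B.

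The most abundant members did not pass the test. Cpr67B had 338, 336 and 226 CPM in degraded and 194, 309 and 279 CPM in control libraries (log2 difference 0.20 ± 0.21, adjusted p = 0.609), and its groups overlapped. Cpr51A had 333, 278 and 242 CPM in degraded and 193, 104 and 198 CPM in control libraries (0.78 ± 0.24, adjusted p = 0.101). Cpr65Ea had 251, 232 and 167 CPM in degraded and 145, 72.9 and 121 CPM in control libraries (0.94 ± 0.25, adjusted p = 0.0734). In Cpr51A and Cpr65Ea every degraded library was above every control library, but the difference missed the threshold. Edg91 (0.40 ± 0.13, adjusted p = 0.109), Edg78E (0.46 ± 0.19, adjusted p = 0.176) and Acp65Aa (0.92 ± 0.37, adjusted p = 0.165) were likewise uncalled, as was Cpr47Ec (-0.32 ± 0.62, adjusted p = 0.804).

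By edgeR no member was called lower, while DESeq2 called 3 lower, and 3 members had all degraded libraries below all control libraries. Lcp65Ae had 48.7, 61.0 and 36.01 CPM in degraded and 82.97, 75.7 and 86.5 CPM in control libraries (log2 difference -0.75 ± 0.19, adjusted p = 0.0596). Cpr64Ad had 62.2, 52.4 and 41.3 CPM in degraded and 130, 74.3 and 62.3 CPM in control libraries (-0.77 ± 0.27, adjusted p = 0.134). Cpr64Ab, its neighbour, had 7.68, 7.95 and 5.09 CPM in degraded and 23.6, 10.2 and 9.10 CPM in control libraries (-1.05 ± 0.37, adjusted p = 0.131). In both Cpr64A genes control replicate 1 was the highest library. CG43367, the gene that contains them, differed by -0.09 (adjusted p = 0.722). Cpr49Ac had the lowest fitted value, -1.06 ± 0.43 (adjusted p = 0.176), with 27.7, 30.9 and 21.7 CPM in degraded and 29.6, 103 and 34.9 CPM in control libraries, so that 1 control library stood apart from the other 5.

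Other cuticle genes and markers of cuticle-secreting cells were higher in the degraded libraries as well. In the Tweedle list 11 of 26 tested genes rose and 0 fell by edgeR (18 and 1 at an unadjusted p under 0.05, 16 and 0 by DESeq2). TwdlJ averaged 15.8 ± 4.8 CPM in degraded and 0.529 ± 0.093 CPM in control libraries (log2 change 4.88 ± 0.30, adjusted p = 0.000246), and TwdlF averaged 165 ± 24 and 35.96 ± 8.5 CPM (2.19 ± 0.20, adjusted p = 0.00193; SD, n = 3 each). In the chitin list 10 of 33 rose and 0 fell by edgeR (17 and 2 at an unadjusted p under 0.05, 11 and 2 by DESeq2), among them Gasp, a chitin-binding protein of the tracheal lumen (1.57 ± 0.14, adjusted p = 0.00173), and Cda4, a chitin deacetylase (1.55 ± 0.16, adjusted p = 0.00469). In the tanning list 5 of 17 rose, including yellow-e (1.76, adjusted p = 0.00813) and amd (1.67, adjusted p = 0.00894). Of the 30 listed regulators 4 rose and 0 fell by edgeR (11 and 0 at an unadjusted p under 0.05, 6 and 0 by DESeq2), with vvl, a POU transcription factor needed in the trachea, at 1.08 ± 0.13 (adjusted p = 0.00759).

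Markers of the tissues that secrete cuticle moved in the same direction. Of the epidermal markers 6 of 12 rose and none fell, with serp, a chitin deacetylase, at 1.26 ± 0.15 (adjusted p = 0.00794) and shg, the epithelial E-cadherin, at 0.85 ± 0.11 (adjusted p = 0.00813). All 4 tested tracheal markers rose. Some genes are in more than 1 list. Of the tracheal markers, Gasp is also in the chitin list and vvl in the regulator list. Of the epidermal markers, serp and verm are also in the chitin list, and grh, ovo and sha in the regulator list. The counts of these lists are therefore not independent, here and in the other comparisons. The summed epidermal markers ranged from 3997 to 4248 CPM in degraded and from 2225 to 2688 CPM in control libraries, and the summed tracheal markers from 939 to 993 CPM and from 454 to 505 CPM. No epidermal or tracheal marker found in these tables was at 0. Of 8 muscle and 9 neuronal markers, 0 rose and 0 fell by edgeR or DESeq2, and 1 of each list was higher at an unadjusted p under 0.05. The part of the epidermal and tracheal markers in the members' change was not tested. The number of members that rose depended on single libraries: it was 0 without control replicate 2, 1 without degraded replicate 2, and 5 without control replicate 1 or without degraded replicate 1. It was 2 when all 14 libraries shared a fit.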

How the data were processed

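The deposited tables hold read counts per gene for 14 RNA-seq libraries of INTACT-purified nuclei, 8 wild-type and 6 from the Ubx degradation experiment. HTSeq, FastQC and the builds BDGP6 and dm6 are named in the submitters' processing notes. The aligner, software versions, annotation and strand setting were "not given in the sources used here". Counts were deposited as whole numbers, not normalised by the authors. In the degradation libraries, 42.8% to 48.6% of records were multiply aligned, 7.36% to 8.87% fell in no gene and 0.773% to 0.849% were ambiguous; these stayed out of library sizes.

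Each set was fitted on its own in edgeR 4.0.16 (R 4.3.3): TMM factors, filterByExpr (minimum count 10, total 15), and its quasi-likelihood test, with p-values adjusted by Benjamini-Hochberg (threshold 0.05) over 10549 wild-type and 11641 degradation genes. CPM used TMM-adjusted library sizes, and the SE was derived from the test's F value. Alternatives were RLE factors, library totals alone, no filter, DESeq2 1.42.0, a replicate block, fits of the compared or of all 14 libraries, and each replicate left out. The test was checked on simulated data. Gene positions and exon lengths came from Ensembl 115 (BDGP6).

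The members and lists were chosen with earlier results of these data known. Members were named by rule, which took the 12 most abundant per set. It also took up to 6 with the largest fold change in each direction per comparison at 5 CPM or more. It added the called members after Ubx degradation, and the most abundant of each cluster by the mean over both sets. Edg78E, Edg84A, Edg91, Acp65Aa and Cpr47Ec completed it. The members at 0, Cpr64Aa, Cpr64Ab, Cpr64Ac, Lcp1, Lcp4, Lcp9, Lcp65Aa, Cpr5C, Cpr49Ad, Cpr65Ax2, Cpr65Ay, Cpr76Bd, Cpr78Ca and Cpr78E fall outside it and were named after their values were seen. In all, 10 listed companion symbols were not matched and are not analysed here.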

Additional observations from a re-analysis of the deposited data

Results flagged for a closer look

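The stage change differed between mesoderm and neuronal nuclei in 53 members, each with a higher change in mesoderm by the test of the difference itself (edgeR's quasi-likelihood test, Benjamini-Hochberg adjusted). The largest was that of Cpr47Ec with 8.66 ± 2.48 on the log2 scale (SE, adjusted p = 0.0313), which rests on 1 count in mesoderm of stages 10-13. Its call was kept in 9 of 14 settings and was lost, among others, with the replicate block. Next came 3 Antennapedia complex genes. Ccp84Aa differed by 8.19 (adjusted p = 0.000827), Ccp84Ab by 8.06 (adjusted p = 0.00114) and Ccp84Ad by 8.03 (adjusted p = 0.00136). Cpr67Fa1 and Cpr67Fa2, taken as near-identical copies, differed by 7.93 (adjusted p = 0.00283) and 7.87 (adjusted p = 0.00166). All of these rest on 2 libraries a group. They also rest on the neuronal libraries of stages 10-13, which stood apart from the other libraries in their share of counts on members. The limit of the filter on low counts named above applies to the 53 members as well.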

How the results depend on the processing

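Of 73 called values of named members, 44 kept their call in every setting; 479 of 497 values kept it under other settings and 263 of 332 with a replicate left out. For Ubx degradation DESeq2 called 14 members higher and 3 lower, and all 14 libraries in a shared fit called 2 higher; over all genes DESeq2 called 711 higher and 493 lower, against 416 and 141. With the replicate block 17 members were higher and 2 lower (743 and 495 over all genes); same-numbered libraries correlated at 0.217, 0.0887 and 0.272 in their deviations, so the numbers were not taken as pairs. Leaving out a replicate gave 0 to 11 higher and 0 to 1 lower. For mesoderm against neuronal nuclei at stages 14-17, library totals alone gave 0 higher, DESeq2 4 and all 14 libraries 4; the compared libraries alone gave 4 lower and all 14 libraries 11. Leaving out a replicate gave 0 to 11 higher and 1 to 14 lower there, and 0 to 1 higher and 59 to 63 lower at stages 10-13. It gave 17 to 38 higher and 0 to 2 lower for the stage change in mesoderm, 0 to 1 higher and 33 to 60 lower in neuronal nuclei, and 43 to 60 higher and 0 to 1 lower for the difference of stage changes. Fits that left 1 library in a group assumed that it varied like the other groups. Uncalled signs turned with a replicate left out for Cpr47Ec (-1.14 to 0.41) and Ccp84Ag (-0.17 to 0.39) after Ubx degradation. Library totals alone put the mean neuronal sum of stages 10-13 at 11480 CPM, and the median of all genes at -0.33 and -0.42 for mesoderm minus neuronal nuclei at stages 10-13 and 14-17, against -0.08 and -0.12. The cause of these shifts was not tested. Members below the filter, and differences of low members between 2 libraries a group, are limited by depth.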

Other observations

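The listed regulators of cuticle genes changed with stage in both directions: 5 of 29 tested rose and 9 fell in mesoderm, and 2 rose and 6 fell in neuronal nuclei. The shares of all tested genes were 24.9% rising and 22.7% falling in mesoderm, and 8.47% and 12% in neuronal nuclei. Whether the list differed from these shares was not tested. The regulators with the smallest adjusted p in each direction are named. Eip74EF, an ETS factor of the ecdysone response, averaged 11.6 ± 6.1 CPM in neuronal nuclei of stages 14-17 and 133 ± 29 CPM at stages 10-13 (SD, n = 2 each; log2 change -3.51 ± 0.39, edgeR adjusted p = 0.00227). The nuclear receptor Hr38 fell as well, with 1.21 ± 0.42 CPM at stages 14-17 and 6.53 ± 1.6 CPM at stages 10-13 (-2.43 ± 0.42, adjusted p = 0.00987). In mesoderm the receptor ftz-f1 averaged 1816 ± 635 CPM at stages 14-17 and 159 ± 144 CPM at stages 10-13 (3.52 ± 0.71, adjusted p = 0.00582), and Eip78C averaged 335 ± 1.2 and 81.2 ± 0.43 CPM (2.04 ± 0.18, adjusted p = 0.00032). The other direction in mesoderm was led by D, with a log2 change of -1.83 (adjusted p = 0.000443), and pnr, with -1.85 (adjusted p = 0.00193). In neuronal nuclei exd (1.03, adjusted p = 0.0279) and drm (1.19, adjusted p = 0.0306) rose.

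Most listed regulators were higher in mesoderm than in neuronal nuclei, with 20 of 29 higher and 2 lower at stages 10-13 and 16 higher and 0 lower at stages 14-17 (edgeR; 20 and 0 at an unadjusted p under 0.05, 18 and 0 by DESeq2). Over all tested genes 23.2% were higher and 29.5% lower at stages 10-13, and 19.0% and 22.1% at stages 14-17. Ubx itself is in the regulator list and averaged 857 ± 28 CPM in mesoderm of stages 10-13, against 122 ± 7.0 CPM in the neuronal libraries (2.82 ± 0.21, adjusted p = 0.00015).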
